A study of Homo sapiens with 2 samples.

Results

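The genes described here are 55 human genes of DNA repair and the DNA damage response, taken by name from 8 classes, out of 19866 protein-coding genes of the RefSeq annotation (GRCh38.p14), and all 55 were found there. The data are the peaks of histone H3 lactylated at lysine 18 (H3K18la) in H1299, an established cell line from a human non-small cell lung cancer, with no treatment named in the labels, mapped by chromatin immunoprecipitation and sequencing (ChIP-seq). The series has 2 libraries, 1 immunoprecipitated with an anti-H3K18la antibody and 1 of input DNA, and only the peak list of the anti-H3K18la library was analysed here. The series' design text names an IgG group where the sample labels name input, so which of them served as control is not settled, and the listed peaks carry names starting in NC, a prefix found nowhere in the labels. There were no replicates and a single cell line, so every value below is that of 1 library, no test was possible, and no difference between genes or pathways has a replicate check.

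DNA repair is divided among pathways that each read a kind of lesion. Homologous recombination and the Fanconi anaemia pathway use the sister chromatid or unhook crosslinks, end joining ligates broken ends, base excision and nucleotide excision cut out damaged bases or stretches of a strand, mismatch repair corrects copying errors, and the kinases of damage sensing halt the cell cycle. Lactylation of histone lysines draws on lactate, which glycolysis makes, and in many cell types it lies at promoters of expressed genes.

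Nearly all the repair genes carried the mark at an end. A peak lay within 1000 bp of either end of the gene, by an overlap of at least 1 bp, in 52 of the 55 repair genes (94.5%), beside 59.1% of all protein-coding genes (11744 of 19866). The exceptions were FANCF, ERCC8 and MRE11. With peaks inside the gene counted as well, 53 of 55 had a peak, beside 66.7% of all genes. Repair genes were longer than most, with a median of 51340 bp beside 24470 bp for all protein-coding genes. Among the 4711 protein-coding genes of 31780 to 87885 bp, the interquartile range of the repair genes, 68.1% had a peak at an end. Of the repair genes, 13 stood alone, with every other protein-coding gene end more than 5000 bp away, and all 13 had a peak at an end, beside 47.7% of such genes in the genome. Among 73 other genes of the same pathways, 68 (93.2%) had one.

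The fold enrichment of these peaks lay somewhat below that of other marked genes, most of all in the upper range. Fold enrichment, the deposited ratio of the immunoprecipitated library to the local background of the peak caller averaged over a broad peak, had a median of 5.40 over the 52 repair genes, taking each gene's highest end peak, with quartiles of 4.17 and 6.28. Over all 11744 genes with an end peak the median was 5.66, with quartiles of 4.42 and 7.19. Of the 52 repair genes, 23 lay above and 29 below that median, 4 lay above the upper quartile and 19 below the lower. An end peak of at least 5-fold was listed for 28 of 55 repair genes (50.9%), beside 36.9% of all genes, and one of at least 10-fold for 2 of 55, beside 3.74%. The 2 were CHEK2 and ERCC3. These shares count genes with no end peak as well. Among genes with an end peak, 28 of 52 repair genes reached 5-fold, beside 7329 of 11744, and 2 of 52 reached 10-fold, beside 742 of 11744. Both shares were lower in the repair genes. Peaks of the repair genes had a median width of 1464 bp, beside 1421 bp for all genes with an end peak, and a median -log10 q of 11.9, beside 13.6.

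**Figure D1:**
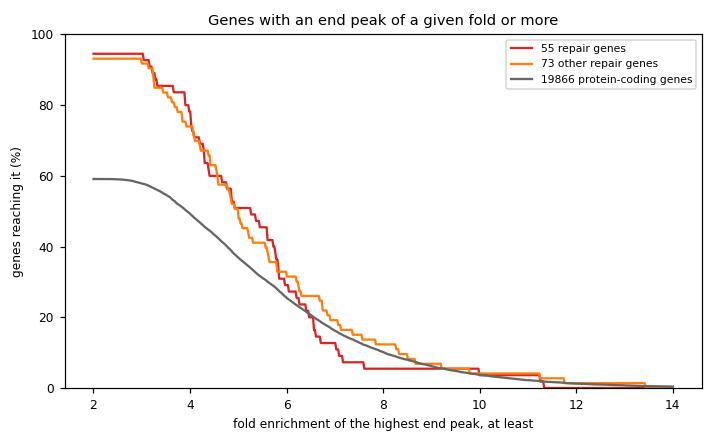
Percentage of genes (vertical axis) whose highest end peak reached the fold enrichment on the horizontal axis, for the 55 repair genes (red), 73 other genes of the same pathways (orange) and all 19866 protein-coding genes (grey). Both repair curves start above 93% where all genes start at 59.1%, and at a fold of 10 the 55 repair genes (3.64%) and all genes (3.74%) lie together.

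To show the DNA at the starts of marked genes, the promoters of 8 repair genes are printed, in each pathway the one that a peak of highest fold overlapped, leaving out higher peaks that missed the gene's own promoter, such as that of RAD52 given below. They are followed by those of FANCF and ERCC8, the genes with no listed peak. Each runs 5′ to 3′ on the gene's strand from 250 bp before to 50 bp after the start that the RefSeq promoter table lists (GRCh38.p14), and that start is called the listed start below. The peak overlapped all 300 bp of 7 of the 8 promoters, and 89 bp at the upstream side of that of CHEK2. Capitals mark any match, on either strand, to one of 7 motifs. These were CCAAT, the E2F motif in the form TTGGCGC or in the form TTCGCGC, the ETS motif CCGGAAG, the SP motif GGGCGG, the CHR motif TTTGAA, the NRF1 motif GCATGCG, and TGACGT, which is a part of the cAMP response element. CCAAT read on the other strand shares letters with the E2F motif, so that a match to one can overlap the other.
XRCC3 promoter (chr14:103715402-103715701, minus strand): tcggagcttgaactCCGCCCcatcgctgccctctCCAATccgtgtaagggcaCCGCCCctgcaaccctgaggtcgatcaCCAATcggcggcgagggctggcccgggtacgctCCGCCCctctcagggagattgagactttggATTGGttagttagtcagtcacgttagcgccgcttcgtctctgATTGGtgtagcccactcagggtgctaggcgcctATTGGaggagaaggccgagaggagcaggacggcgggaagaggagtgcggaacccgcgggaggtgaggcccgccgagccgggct
FANCC promoter (chr9:95317660-95317959, minus strand): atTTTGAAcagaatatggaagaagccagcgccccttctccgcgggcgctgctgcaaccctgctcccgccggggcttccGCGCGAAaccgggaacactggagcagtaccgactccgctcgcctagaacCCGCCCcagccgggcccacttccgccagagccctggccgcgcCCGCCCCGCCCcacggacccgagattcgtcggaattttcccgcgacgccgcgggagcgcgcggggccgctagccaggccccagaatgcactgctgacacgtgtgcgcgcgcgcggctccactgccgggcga
XRCC4 promoter (chr5:83077297-83077596, plus strand): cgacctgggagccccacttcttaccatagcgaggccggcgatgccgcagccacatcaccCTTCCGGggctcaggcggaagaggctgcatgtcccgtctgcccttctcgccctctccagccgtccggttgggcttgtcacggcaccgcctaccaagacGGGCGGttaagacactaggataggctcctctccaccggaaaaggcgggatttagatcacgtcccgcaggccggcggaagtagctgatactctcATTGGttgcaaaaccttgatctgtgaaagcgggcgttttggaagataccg
OGG1 promoter (chr3:9749702-9750001, plus strand): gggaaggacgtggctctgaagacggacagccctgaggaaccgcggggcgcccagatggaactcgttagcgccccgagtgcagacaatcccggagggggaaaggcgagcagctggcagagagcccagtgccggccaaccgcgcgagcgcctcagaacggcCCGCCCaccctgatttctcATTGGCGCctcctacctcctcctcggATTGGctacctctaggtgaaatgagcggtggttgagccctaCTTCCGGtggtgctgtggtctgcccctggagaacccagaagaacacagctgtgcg
ERCC3 promoter (chr2:127294095-127294394, minus strand): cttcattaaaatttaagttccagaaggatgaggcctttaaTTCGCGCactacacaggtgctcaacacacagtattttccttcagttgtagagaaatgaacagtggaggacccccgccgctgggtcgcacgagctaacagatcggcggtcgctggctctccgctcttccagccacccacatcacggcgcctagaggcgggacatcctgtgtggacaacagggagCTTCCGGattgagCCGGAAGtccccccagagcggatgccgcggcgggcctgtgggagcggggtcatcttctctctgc
MSH6 promoter (chr2:47782895-47783194, plus strand): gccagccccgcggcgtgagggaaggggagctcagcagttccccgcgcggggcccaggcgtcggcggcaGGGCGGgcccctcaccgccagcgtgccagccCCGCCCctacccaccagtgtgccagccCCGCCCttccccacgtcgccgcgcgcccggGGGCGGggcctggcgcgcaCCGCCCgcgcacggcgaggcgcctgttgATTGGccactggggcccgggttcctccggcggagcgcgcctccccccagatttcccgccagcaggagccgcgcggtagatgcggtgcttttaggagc
CHEK2 promoter (chr22:28741771-28742070, minus strand): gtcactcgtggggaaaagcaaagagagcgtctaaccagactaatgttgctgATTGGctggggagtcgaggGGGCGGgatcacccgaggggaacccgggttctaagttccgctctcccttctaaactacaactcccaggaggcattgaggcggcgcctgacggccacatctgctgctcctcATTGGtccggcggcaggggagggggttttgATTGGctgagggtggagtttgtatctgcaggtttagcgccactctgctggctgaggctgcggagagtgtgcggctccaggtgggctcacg
MGMT promoter (chr10:129466991-129467290, plus strand): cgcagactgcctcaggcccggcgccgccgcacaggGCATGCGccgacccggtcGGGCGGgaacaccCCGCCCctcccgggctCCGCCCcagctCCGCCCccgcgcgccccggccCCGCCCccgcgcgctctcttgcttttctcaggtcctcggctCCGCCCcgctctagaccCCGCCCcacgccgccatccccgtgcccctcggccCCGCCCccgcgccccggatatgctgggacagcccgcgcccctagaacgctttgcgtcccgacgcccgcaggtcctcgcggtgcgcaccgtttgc
FANCF promoter (chr11:22625774-22626073, minus strand): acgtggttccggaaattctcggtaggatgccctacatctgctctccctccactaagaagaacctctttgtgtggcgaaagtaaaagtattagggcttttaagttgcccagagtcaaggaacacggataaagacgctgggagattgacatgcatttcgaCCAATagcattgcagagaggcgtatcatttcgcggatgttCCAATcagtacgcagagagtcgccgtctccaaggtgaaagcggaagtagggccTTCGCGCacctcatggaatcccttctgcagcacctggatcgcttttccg
ERCC8 promoter (chr5:60945021-60945320, minus strand): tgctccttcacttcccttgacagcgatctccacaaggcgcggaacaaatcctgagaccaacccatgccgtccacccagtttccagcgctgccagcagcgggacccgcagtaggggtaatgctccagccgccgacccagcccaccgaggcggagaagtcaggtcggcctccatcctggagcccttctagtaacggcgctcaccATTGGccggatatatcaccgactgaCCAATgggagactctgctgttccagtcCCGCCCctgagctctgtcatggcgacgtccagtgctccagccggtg

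The motifs differed in how often they were found. Of the 52 repair genes in the promoter table, 40 (76.9%) held the SP motif, beside 75.9% of the 8545 protein-coding promoters that overlapped a peak and 58.5% of all 15843, and the shares below are given in that order. CCAAT was held by 21 (40.4%), beside 35.5% and 36.4%, and the ETS motif by 16 (30.8%), beside 20.7% and 14.2%. The E2F motif was held by 9 (17.3%), beside 9.60% and 7.0%. The part of the cAMP response element was held by 10 (19.2%), beside 12.2% and 9.67%, the NRF1 motif by 7 (13.5%), beside 7.13% and 5.14%, and the CHR motif by 4 (7.69%), beside 8.26% and 12.1%. The 52 include 8 promoters that overlapped no peak. Of the 44 repair promoters that overlapped one, 84.1% held the SP motif, 38.6% CCAAT, 31.8% the ETS motif and 18.2% the E2F motif. The part of the cAMP response element was held by 20.5% of these 44, the NRF1 motif by 15.9% and the CHR motif by 9.09%. In protein-coding promoters that overlapped no peak, CCAAT was held by 37.4% and the CHR motif by 16.7%. The E2F matches fell at FANCA, FANCC, FANCF, XRCC6, LIG1, OGG1, UNG, ERCC3 and MSH3. The ratio of observed to expected CpG had a median of 0.888 in the repair promoters, 0.867 in promoters that overlapped a peak and 0.393 in those that did not. Of the 8 repair promoters that overlapped no peak, the lowest ratios were 0.245 at ERCC1 and 0.258 at RAD51B. The others were not low, with 1.1 at FANCM, 1.028 at ERCC4, 0.9985 at MRE11, 0.982 at PARP2, 0.936 at FANCF and 0.706 at ERCC8. These are matches of letters in a window and not measured binding.

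The peaks lay at the starts of the genes. Of the 52 repair genes with a strand in the promoter table, 49 had a peak at the 5′ end, beside 59.5% of all protein-coding genes, and 7 had one at the 3′ end, beside 7.62%. The strand of FANCI, XRCC5 and NBN was not in that table, and each had a peak at 1 end. The listed start lay inside a peak in 39 of 52 repair genes, beside 49.9% of all genes, and the promoter overlapped a peak in 44 of 52, beside 53.9%. A peak within 1000 bp of the listed start was found for 49 of 52, beside 60.2%. The 39 peaks that covered a start reached a median of 665 bp upstream (64 to 1542) and 735 bp downstream (367 to 2220), and 19 of them reached farther downstream than upstream. Some starts lay between peaks. At ATM one peak ended 514 bp upstream and the next began 16 bp downstream, leaving a gap of 529 bp. At PARP2 the gap was 573 bp, with the stronger peak upstream (6.19-fold against 3.22-fold), where the RNase P RNA gene RPPH1 also has an end. At BARD1 the gap of 532 bp lay upstream of the start.

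**Figure D2:**
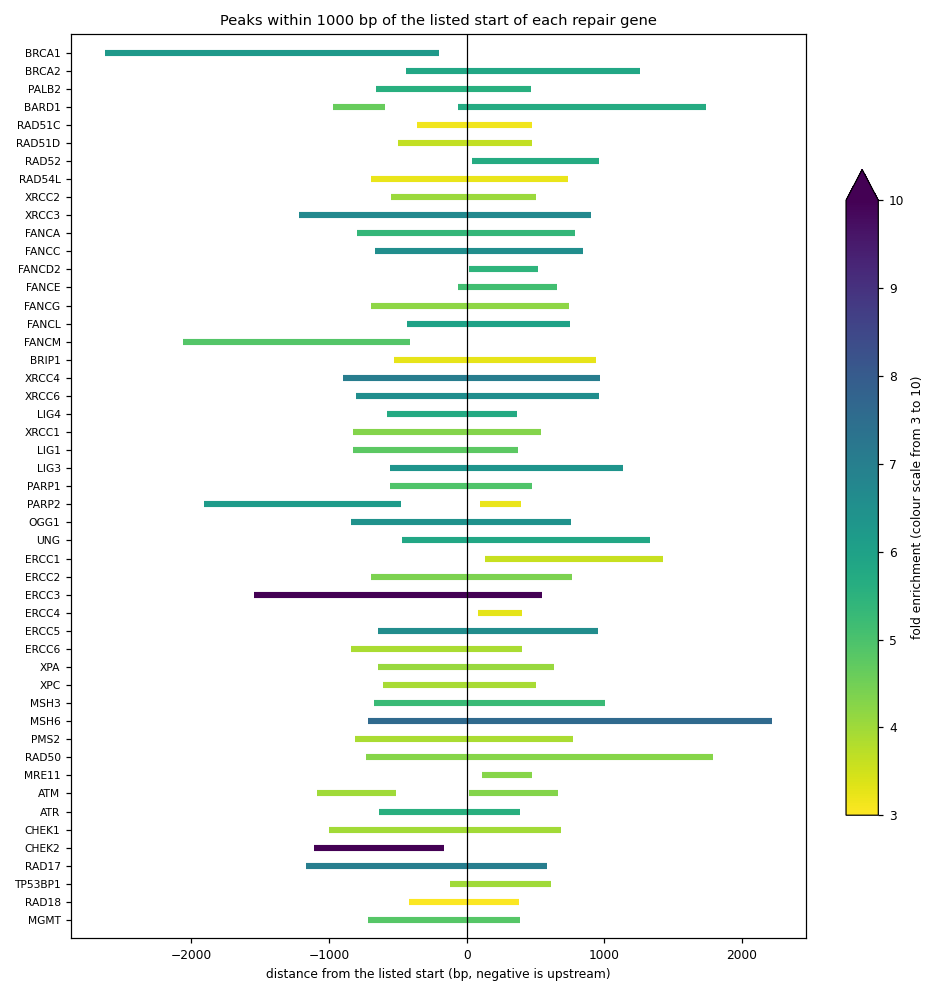
Peaks within 1000 bp of the listed start of each repair gene that has one, 49 genes in all. The horizontal axis is the distance from the start in bp, read along the gene's strand, each bar is 1 peak, and the colour is its fold enrichment. Most bars cross the start, while those of BRCA1, FANCM and CHEK2 lie wholly upstream and those of RAD52, FANCD2, ERCC1, ERCC4 and MRE11 wholly downstream.

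Homologous recombination, the repair of broken chromosomes by copying an intact sister, had an end peak at all 11 genes, from 3.16-fold to 9.99-fold with a median of 5.71. BRCA2, which loads the recombinase on single-stranded DNA, had 5.84-fold (NCBI gene 675, chr13:32315068-32316765), in a peak that also lay at the 5′ end of ZAR1L. PALB2, the partner that bridges BRCA1 and BRCA2, had 5.59-fold, at the 5′ end of DCTN5 as well. BARD1, the RING partner of BRCA1, had 5.71-fold and 4.62-fold in its pair of peaks. The highest end peaks of these genes, picked from the 11, lay from 5.59-fold to 5.84-fold. The paralogues of the recombinase ranged from 3.16-fold at RAD51C to 7.16-fold at RAD51B, whose value is that of its 3′ end.

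Among those paralogues, which assist the assembly of the recombinase filament, XRCC3 had 6.70-fold, XRCC2 4.04-fold, RAD51D 3.64-fold and RAD51C 3.16-fold. The translocase gene RAD54L had 3.22-fold. RAD54L and RAD51D had a -log10 q of 4.20 and 3.80 and so fell under the stricter cut-off of 5 on that scale. The highest value of the class belonged to RAD52, an annealing factor, with 9.99-fold (chr12:989514-991928). That peak lay at the 5′ end of ERC1 and 39820 bp or more upstream of the listed start of RAD52, where another peak had 5.73-fold, so that the value nearest to the listed promoter is that of the second peak.

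BRCA1, the ubiquitin ligase that promotes end resection, had 3 peaks. The gene in the annotation reaches to 43170327 on chromosome 17, and the peak at that end had 6.25-fold over 2427 bp (chr17:43170532-43172958), lay wholly outside the gene and was shared with the 5′ end of NBR1. An end of BRCA1P1, a pseudogene copy of BRCA1, also lay in it, and how reads were placed between the copies was not examined. A second peak, of 5.51-fold over 664 bp, lay 45015 to 45678 bp inside the gene (chr17:43124649-43125312), at an end of the long noncoding gene NBR2. The remaining peak, of 3.59-fold, lay farther inside. A single start was used for BRCA1, so whether the peak at NBR2 lies at another start of BRCA1 was not examined. With the midpoint of a peak required within the window, BRCA1 had no peak at an end.

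RAD51B, another paralogue, held most of the peaks found inside repair genes. It spans 863318 bp of chromosome 14 (67819779 to 68683096) and had 34 peaks, 1 at its 5′ end (4.38-fold, 1500 bp), 1 at its 3′ end (7.16-fold, 9660 bp) and 32 between them. Those 32 ranged from 2.24-fold to 9.76-fold with a median of 3.18, had a summed full width of 82487 bp, and 5 were wider than 5000 bp. The widest, 15667 bp, was also the highest (chr14:68134366-68150032). No other of the 315 protein-coding genes of at least 500000 bp had as many inside it, the next being GPHN with 23, and 118 of them had none. No peak lay within 1000 bp of the listed start of RAD51B, which is 3762 bp inside the gene.

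RAD51B lies where the control background was raised. Solved from the deposited fold and -log10 p of the peaks within 2500000 bp, in scaled reads, the local background had a median of 8.95 at RAD51B, beside 3.71 over the repair genes and 3.79 over all protein-coding genes. GPHN, on the same chromosome, had 8.67. Peaks of lower fold reach significance at a higher background, and of the 32 peaks 18 had a -log10 q of at least 5 and 10 exceeded the median fold of all listed peaks, 4.36. The part of the background in the number of peaks was not tested.

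**Figure D3:**
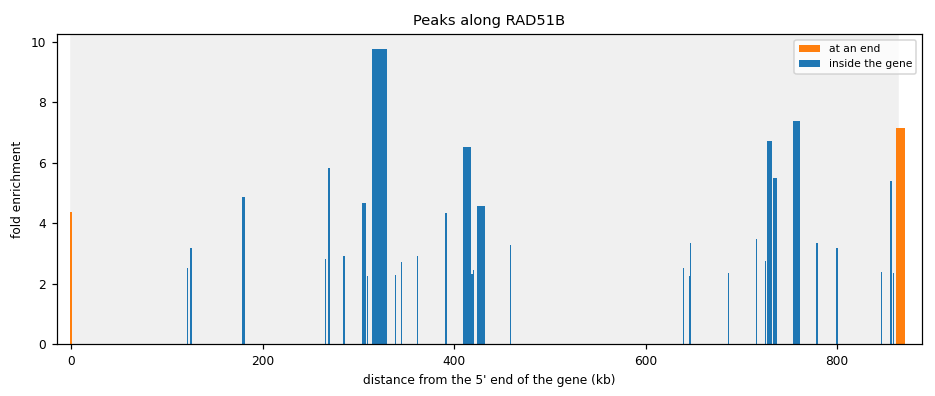
Peaks along RAD51B, by distance of the peak from the 5′ end of the gene in kb (horizontal axis) and fold enrichment (vertical axis). Bar width is the peak's width, with a minimum so that narrow peaks are visible, blue bars are the 32 peaks inside the gene, orange bars those at its ends, and the grey area is the gene. The tallest bar, 9.76-fold, stands about 322.4 kb from the 5′ end.

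The Fanconi anaemia pathway, which unhooks crosslinks between the strands, had an end peak at 9 of 10 genes, with a median of 5.36 and a maximum of 6.56. Of its core complex, the ubiquitin ligase that marks the crosslink, FANCC had 6.56-fold, FANCL, the catalytic subunit, 5.96-fold, FANCE 5.83-fold, FANCA 5.36-fold and FANCG 4.20-fold. The value of FANCE was that of its 3′ end, shared with the 5′ end of the ribosomal protein gene RPL10A, and its 5′ end had 5.12-fold. FANCM, the translocase that anchors the complex, had 4.86-fold in a peak 415 bp or more upstream of its start, which reached the 5′ end of FKBP3, and no peak under the midpoint rule. The complex's substrates, the clamp genes FANCD2 and FANCI, had 5.44-fold and 4.01-fold. The helicase gene BRIP1 had 3.27-fold. FANCI and BRIP1, with a -log10 q of 4.77 and 4.21, fell under the cut-off of 5.

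FANCF, an adaptor of the core complex, was the gene of the class without a peak. It is the shortest of the repair genes (3291 bp, chr11:22622533-22625823), and the nearest listed peak lay 304794 bp away. Too few peaks lay around it to solve the local background. The mark is not shown to be absent there, because the depth of the library is unknown.

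End joining had an end peak at all 4 genes. XRCC4, the scaffold of the ligase, had 7.07-fold, in a peak shared with the 5′ end of TMEM167A. XRCC6 and XRCC5 encode the Ku subunits that bind broken ends, with 6.56-fold and 4.39-fold. LIG4, the ligase itself, had 5.75-fold, shared with the 5′ end of ABHD13. The peak of XRCC5 was narrow (493 bp), and a second narrow peak of 4.50-fold lay inside the gene.

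Base excision and single-strand break repair had an end peak at all 7 genes, from 4.30-fold to 6.45-fold by the highest end peak of each. The glycosylase genes OGG1 and UNG, which excise oxidised guanine and uracil, had 6.45-fold and 5.82-fold at the 5′ end, and 6.0-fold and 5.03-fold at the 3′ end. The 3′ peak of OGG1 also lay at the ends of TADA3, ARPC4 and ARPC4-TTLL3, and that of UNG at ACACB. LIG3 had 6.39-fold and LIG1, the ligase of replication and of long patches, 4.76-fold. PARP2 and PARP1, the break sensors that make poly(ADP-ribose), had 6.19-fold and 4.92-fold. The value of PARP2 was that of its upstream peak, which missed the promoter, and the peak just after its start had 3.22-fold. XRCC1, the scaffold of single-strand break repair, was lowest with 4.30-fold at its start and 4.46-fold in a peak inside the gene.

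Nucleotide excision repair had an end peak at 8 of 9 genes, from 3.30-fold to 11.3-fold, with a median of 5.07. ERCC3, a helicase of the transcription factor TFIIH, had 11.3-fold over 2088 bp (NCBI gene 2071, chr2:127293599-127295686), from 1542 bp upstream to 545 bp downstream of the start, with no other protein-coding gene end in the peak. Of all protein-coding genes, 98.06% had a lower value or no end peak. ERCC5, the endonuclease that cuts on the 3′ side, had 6.59-fold. XPC, the damage sensor, had 3.92-fold at the 5′ end it shares with LSM3 and 6.04-fold at the 3′ end beside TMEM43. XPA, which verifies damage, had 4.08-fold, and ERCC6, which acts on stalled RNA polymerase, 3.89-fold. ERCC4, the other endonuclease gene, had 3.30-fold in a peak of 317 bp with a -log10 q of 4.32, also under the cut-off of 5.

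ERCC1, the partner of ERCC4, and ERCC2, the other TFIIH helicase, lie in a stretch of chromosome 19 where the background was raised, with a local median of 8.70 for both. ERCC2 had 4.37-fold at its start. ERCC1 had 6 peaks, of 3.58-fold at the 5′ end, 5.77-fold at the 3′ end shared with PPP1R13L and POLR1G, and 4.09, 6.68, 7.32 and 8.78-fold inside the gene. Whether any of those inside lies at another start of ERCC1 was not examined. Its own peaks had backgrounds of 11.9 to 13.6, those of XRCC1, in the same stretch (local median 10.7), 10.06 to 11.6, and that of ERCC2 11.4. LIG1, farther along the chromosome, had a local median of 3.33. The part of the background in these values was not tested.

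ERCC8, the partner of ERCC6 in repair of transcribed strands, had no listed peak (chr5:60866454-60945070), and the nearest one lay 21789 bp away. Its local background, 3.80, was near the median of the repair genes. Within transcription-coupled repair the values were thus 3.89-fold at ERCC6 and none listed at ERCC8.

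**Figure D4:**
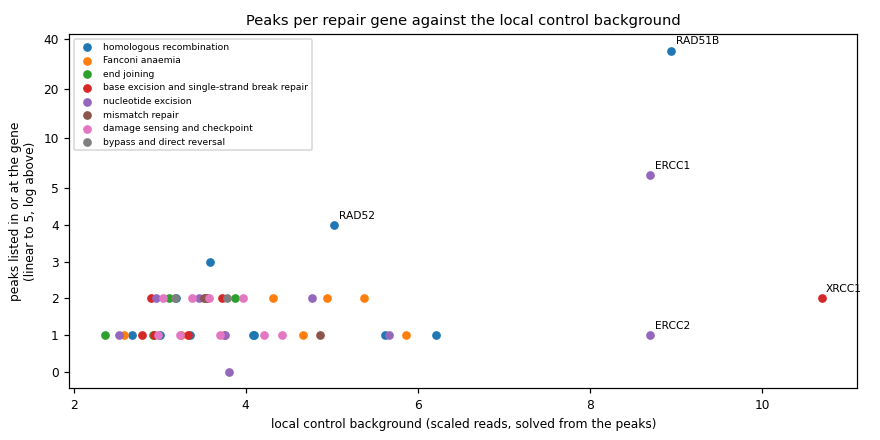
Number of peaks listed in or at each repair gene (vertical axis, linear to 5 and logarithmic above) against the local control background solved from the peaks (horizontal axis, scaled reads), for 53 genes with enough peaks nearby. RAD51B (34 peaks), ERCC1 (6), XRCC1 and ERCC2 lie apart at a background above 8, and all other genes have 4 peaks or fewer.

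Mismatch repair had an end peak at all 3 genes. MSH6, the partner that reads single mismatches, had 7.61-fold over 2936 bp, reaching 2220 bp downstream of the start. MSH3, its counterpart for loops, had 5.25-fold, and PMS2, the endonuclease subunit, 3.89-fold in a peak shared with the 5′ end of AIMP2. PMS2 has near-identical pseudogene copies, and how reads were placed among them was not examined.

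Damage sensing and the checkpoint had an end peak at 8 of 9 genes, with a median of 4.47. CHEK2, an effector kinase, had 11.3-fold over 945 bp (NCBI gene 11200, chr22:28741982-28742926), the highest end peak of the 55 genes. A lower value or no end peak was found for 98.2% of all protein-coding genes. The peak lay 162 to 1106 bp upstream of the CHEK2 start and also at the 5′ end of HSCB, 198 bp from CHEK2, so that it cannot be assigned to either gene. CHEK1, the other effector kinase, had 3.97-fold. The apical kinases ATR and ATM had 5.59-fold and 4.29-fold, and the peak of ATM was shared with the 5′ end of NPAT. RAD17, which loads the checkpoint clamp, had 7.02-fold in a peak shared with AK6 and TAF9, and the adaptor gene TP53BP1 had 4.01-fold, shared with MAP1A, and 5.32-fold in a peak inside the gene.

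The complex that first binds broken ends and activates ATM comprises NBN, RAD50 and MRE11. NBN had 4.65-fold at the higher of its 2 ends on the chromosome and RAD50 4.27-fold, in a peak of 2525 bp that also lay at IL5. MRE11, the nuclease, had no peak within 1000 bp of the ends given in the annotation, and 1 of 4.28-fold inside the gene (chr11:94493370-94493731). That peak began 113 bp downstream of the listed start, which lies 18568 bp inside the gene, and it also lay at ANKRD49. Under the listed start MRE11 therefore had a peak, as did all the genes of this complex whose start is listed.

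Of the remaining genes, MGMT, which removes alkyl groups from guanine directly, had 4.85-fold at its start and a higher peak, 7.13-fold over 2180 bp, inside the gene, 63509 to 65688 bp from the start. RAD18, the ubiquitin ligase of lesion bypass, had the lowest end peak of the 52 genes (3.03-fold, -log10 q 1.97), and 3.66-fold inside the gene. The end peak of RAD18 was thus under the cut-off of 5.

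Set side by side, the pathways overlapped. Median fold of the end peaks was 6.16 in end joining, 5.82 in base excision and single-strand break repair, 5.71 in homologous recombination, 5.36 in the Fanconi anaemia pathway, 5.25 in mismatch repair, 5.07 in nucleotide excision, 4.47 in damage sensing and 3.94 over the 2 genes of bypass and direct reversal. Each gene counted with its highest end peak, which was a 3′ peak at RAD51B, FANCE, ERCC1 and XPC. At the 5′ end these genes had 4.38, 5.12, 3.58 and 3.92-fold, so the order given is that of the highest end peaks only. In nucleotide excision, every 5′ peak except those of ERCC2, ERCC3 and ERCC5 was of 4.08-fold or less, under the median of 5.07 given above. Medians of the pathways by 5′ peaks alone were not computed, and their order can differ. The range of each of the other 7 pathways overlapped that of end joining, 4.39 to 7.07. All 55 genes with their peaks are shown in the plot of fold by pathway.

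**Figure D5:**
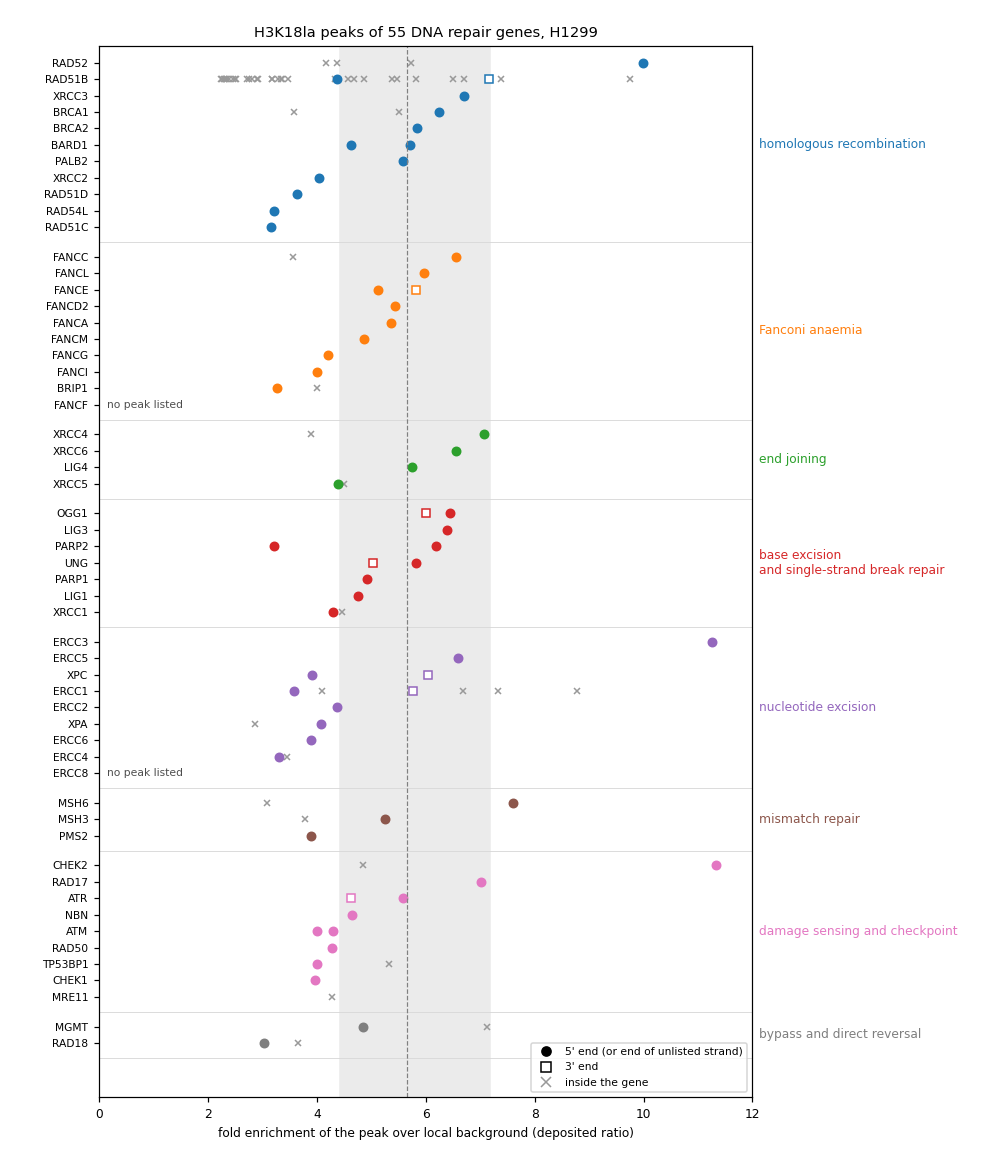
Fold enrichment of every listed peak (horizontal axis) of the 55 repair genes (rows), grouped by pathway. Filled circles are peaks at the 5′ end, or at an end of a gene whose strand was not listed, open squares peaks at the 3′ end and crosses peaks inside the gene, and the grey band and dashed line are the quartiles and median over all 11744 protein-coding genes with an end peak. CHEK2, ERCC3 and RAD52 stand to the right of the other end peaks.

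Repair genes often shared the peak with a neighbour. The peak of highest fold lay at the end of another protein-coding gene in 22 of 52 repair genes, beside 32.9% of all genes with an end peak. Among the 49 with a 5′ peak, it lay in 16 at the 5′ end of a gene on the opposite strand, beside 21.8% of all genes with a 5′ peak. Sharing was seen in 6 of 11 genes of homologous recombination, 3 of 4 of end joining, 2 of 3 of mismatch repair, 2 of 7 of base excision and none of the 2 of bypass and direct reversal. Of the genes with an end peak, it was seen in 5 of 8 in damage sensing, 2 of 8 in nucleotide excision and 2 of 9 in the Fanconi anaemia pathway. For these genes a single peak cannot be divided between the neighbours. A smaller share of the repair genes stood alone, 13 of 55, beside 9966 of 19866 protein-coding genes, by the distance of 5000 bp used above. The part of gene spacing in the sharing was not tested.

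Most of the peaks inside repair genes lay in RAD51B, with 32 of 55. A peak inside the gene was found in 18 of 55 repair genes (32.7%), beside 24.8% of all protein-coding genes and 33.5% of those in the length range given above. Per 100 kb of gene there were 1.15 in the repair genes, 0.586 without RAD51B and 0.808 over all protein-coding genes. Without the 4 genes of local background above 8, which are RAD51B, XRCC1, ERCC1 and ERCC2, the density was 0.470, the number with an end peak 48 of 51, and the median fold of the end peaks 5.40 as before. The 0.808 over all protein-coding genes keeps RAD51B and the other genes of raised background. It is therefore no like comparison for 0.586 or 0.470.

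Of the other genes of the same pathways, listed by pathway and not by their values, 68 of 73 had an end peak, with a median of 5.06-fold. The highest of each pathway were RAD23B (13.4-fold), which stabilises the damage sensor XPC, TIPIN (11.2-fold), which protects stalled forks, APTX (9.78-fold), which removes abortive ligation products, REV3L (8.31-fold), the catalytic subunit of a bypass polymerase, and the nuclease gene MUS81 (8.26-fold). In the remaining pathways FAAP20 had 7.85-fold, PAXX 6.89-fold and MLH3 5.60-fold. POLB, the gap-filling polymerase of base excision, had no listed peak at an end or inside the gene. RBBP8, RPA3, UVSSA and MAD2L2 had none at an end but at least 1 inside, the highest being 4.77, 4.52, 9.84 and 5.18-fold.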

How the data were processed

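H3K18la ChIP-seq of H1299 cells was described from the peak list of 1 library. Per the submitters' processing notes, the tools were bcl2fastq 2.17, cutadapt 1.18, Trimmomatic 0.38, Bowtie2 2.3.4.1, Picard, MACS2 (2.1.2 and 2.1.0 are both listed) and ChIPseeker, with hg38. Roles and settings, the threshold and the control are not given in the sources used here. The file has no header and is in the broad peak format. Its deposited values per peak are the fold (a ratio), the -log10 p and -log10 q, and a score. The list held 28695 peaks, and its largest q was 0.0472. The depth is unknown, so a gene with no listed peak is not shown to lack the mark.

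Peaks were overlapped (Python 3.11.15, pandas 2.3.3, scipy 1.17.1) with RefSeq genes of GRCh38.p14, of which 718 of 59679 placed entries on alternate or unlocalised sequences were left out. The table gives no exons, so exonic, intronic and untranslated positions were not assigned. Strand and listed start came from the RefSeq promoter table, which holds 15843 of the protein-coding genes and 52 of the 55 repair genes. A single start was used per gene, so a peak placed inside a gene can lie at another of its starts. Of several end peaks, that of highest fold was taken. The control background was solved from fold and -log10 p under a Poisson model with 1 added to both terms. It is approximate, since both values are averages over a peak, and was summarised where at least 10 peaks lay within 2500000 bp. The overlap search was tested on simulated data.

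The members, pathways and lists were chosen with earlier results of these data known. All members could be named. Of the other repair genes, the one of highest fold in each pathway and those without an end peak were named, the rule covering only those with no peak at all, so that RBBP8, RPA3, UVSSA and MAD2L2 were chosen after their values were seen, as was GPHN. The alternatives were windows of 500 and 3000 bp, a midpoint rule, a -log10 q of at least 5, folds above the median of all peaks, and the 5′ end alone. The listed start, the gene set without raised background, and all alternatives for the other repair genes were chosen after seeing the data.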

Additional observations from a re-analysis of the deposited data

How the results depend on the processing

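The number of repair genes with an end peak was 52 of 55 with a window of 500 bp (57.7% of all protein-coding genes) and of 3000 bp (62.4%), 50 under the midpoint rule (54.8%), 46 at a -log10 q of at least 5 (52.4%), 35 for folds above the median of all peaks (45.0%), and 49 of 52 both for the 5′ end alone and for the listed start. It was 13 of 13 among genes with no other gene end within 5000 bp, and 48 of 51 without the genes of raised background, where fewer genes were counted by construction. Counts by pathway stayed within 1.5 times the reported ones except for folds above the median of all peaks, with 7 of 11 in homologous recombination, 5 of 9 in nucleotide excision, 4 of 9 in damage sensing and 1 of 2 in bypass and direct reversal, and for a -log10 q of at least 5, with 1 of 2 in bypass and direct reversal. Here the alternative itself leaves out the weaker peaks. The median fold of the end peaks, 5.40, was 5.30 and 5.52 with windows of 500 and 3000 bp. It was 4.88 under the midpoint rule and 5.12 both for the 5′ end alone and for the listed start. With the weaker peaks left out it was 5.65 by -log10 q and 5.84 by fold. Taking the peak of highest -log10 q changed 1 of 52 values, that of OGG1, to 6.0-fold. No paired analysis was possible because the comparison holds 1 library and rests on no test. With no replicate, no library could be left out, and the unknown depth limits every statement on a missing peak.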
